A study of Mus musculus with 4 samples.

Results

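The genes described here encode 10 transcription factors of the ETS family: Elf1, Elf2, Ets1, Ets2, Erg, Fli1, Etv6, Spi1, Gabpa and Elk3. A peak was counted for a gene when its summit, the base with the highest coverage, lay between the annotated ends of that gene in GENCODE M21 (GRCm38). By this rule 56 of the 19866 peaks in 3 lists belonged to the 10 genes, out of 21951 protein-coding genes. They were selected on the fold of an intronic Elf1 peak and as its blood-related family members, with the peaks of these lists already known, so their counts and folds are a description and carry no test.

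RNA bound to a reader of m6A, a methyl mark on adenosines of RNA, was recovered from primary mouse cells, taken from bone marrow and labelled lin- c-Kit+. The abbreviation LIC in the labels is not spelled out there, and the series title places the cells in acute myeloid leukaemia. They name no genotype, driver oncogene, strain or age. There was 1 library each for IGF2BP2, YTHDF2 and YTHDC1 and 1 input library, all from cells kept with IL3, IL6 and SCF, crosslinked with UV light of 254 nm and amplified over 20 PCR cycles. No reader has a replicate, so no difference between readers could be tested. Sequencing depth is unknown, because library totals are not in the files used here. The IGF2BP2 list held 7069 peaks, that of YTHDF2 2834 and that of YTHDC1 9963. Of 10 progenitor and myeloid markers 7 had a peak in some list, against 0 of 8 lymphoid and 0 of 5 erythroid markers, and 23.9% of all protein-coding genes. By reader it was 7 for YTHDC1, 4 for YTHDF2 and 2 for IGF2BP2, beside 20.0%, 7.28% and 12.8% of all protein-coding genes. Cd34, Mpo and Elane had no peak, and Kit had 1 intronic YTHDC1 peak with a pileup of 4. Spi1 is both a marker and one of the 10 genes. The marker lists differ in gene length, with medians of 16.6, 10.9 and 3.36 kb, and a peak reports bound RNA and is no measure of expression.

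ETS factors share a DNA-binding domain that recognises a GGAA core, and several of them govern the formation of blood cells. Spi1 (PU.1) drives myeloid and B cell fates, Erg and Fli1 maintain stem cells and megakaryocytes, and Etv6 is a repressor needed by adult stem cells. Of the readers, IGF2BP2 is known to stabilise bound mRNA, YTHDF2 to promote its decay, and YTHDC1 acts in the nucleus, where introns are still present. An intronic peak can stem from unspliced RNA, from a spliced-out intron or from a transcript missing in the annotation.

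YTHDC1 had most of the peaks in these genes. It had 38 peaks in 8 of the 10 genes, IGF2BP2 10 peaks in 7 genes, and YTHDF2 8 peaks in 5 genes. A peak was present in 20.0% of all protein-coding genes for YTHDC1, 12.8% for IGF2BP2 and 7.28% for YTHDF2. The 10 genes are long, with a median of 94.6 kb against 17.4 kb for all protein-coding genes. Among genes at least as long as the shortest of them (19.0 kb), the shares were 28.8%, 19.5% and 10.3% in the same order. That floor on length does not match the lengths of the 10 genes, so the counts remain unmatched for length. Elf1, Erg and Etv6 had a peak in all 3 lists. Elf2, Fli1, Spi1, Gabpa and Elk3 were in 2 lists, Ets2 was in that of YTHDC1 alone, and Ets1, a factor best known from lymphocytes, was in none. At a fold of at least 5, which 14.5%, 8.05% and 4.05% of all protein-coding genes met for YTHDC1, IGF2BP2 and YTHDF2, 8, 5 and 2 of the 10 genes had a peak. At a pileup of at least 5 (14.7%, 8.13% and 4.12%), 8, 6 and 3 of them did.

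**Figure D1:**
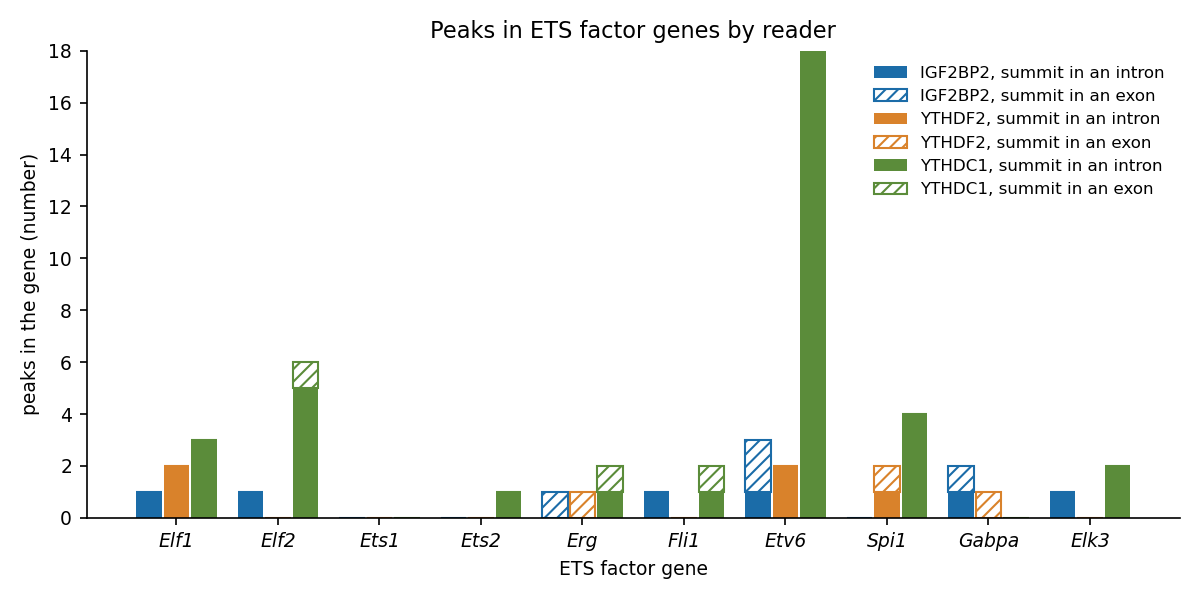
Number of peaks with a summit in each ETS factor gene (vertical axis), for the IGF2BP2, YTHDF2 and YTHDC1 lists. Solid bars are intronic and hatched bars exonic summits; each bar comes from 1 library. The 18 YTHDC1 peaks of Etv6 stand above all other bars, and Ets1 has none.

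By their summits, most peaks of these genes were intronic in each list. The summit lay in an intron for 35 of 38 YTHDC1 peaks (92.1%, exact binomial 95% interval 78.6 to 98.3), 6 of 10 IGF2BP2 peaks (60.0%, 26.2 to 87.8) and 5 of 8 YTHDF2 peaks (62.5%, 24.5 to 91.5). These intervals cover counting error only and treat peaks as independent, which peaks of 1 gene may not be. They are no test against the shares of the lists. With a peak called exonic where any base touched an exon, 5 of 10 IGF2BP2 peaks were intronic, and the other shares were as given. Over all peaks in protein-coding genes the intronic share was 44.5%, 29.2% and 24.6%. Etv6 alone supplied 18 of the 38 YTHDC1 peaks, and without it 17 of 20 (85.0%) were intronic. Few summits lay near a start of transcription. Within 2 kb of an annotated transcript start of their gene were 8 of 38 YTHDC1, 1 of 10 IGF2BP2 and 1 of 8 YTHDF2 summits. Over all peaks in protein-coding genes these shares were 44.5%, 41.7% and 46.1%. The 10 genes are long (median 94.6 kb against 17.4 kb), and neither this share nor the intronic share was matched for gene length.

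Elf1, an ETS activator known from T cells and blood progenitors, held the peak with the highest fold of the family in all 3 lists. The gene (ENSMUSG00000036461.16, plus strand) spans 79481194 to 79582494 on chromosome 14. The peak ran from 79525934 to 79526411 for IGF2BP2, from 79526050 to 79526314 for YTHDF2 and from 79526062 to 79526319 for YTHDC1. All of them share 253 bp, and the summits lay within 16 bp of each other. The place is in intron 1 of the main transcript, which has 9 exons. That intron is 54485 bp long, and the nearest annotated exon of any Elf1 transcript was 9945 to 9961 bp from the summits. No other annotated gene lay under the summits.

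At this Elf1 place the pileup, the number of fragments over the summit, was 115 in the IGF2BP2 library, 62 in that of YTHDF2 and 55 in that of YTHDC1. The fold, the authors' ratio of pileup to local background, was 72.1, 48.8 and 30.7. The −log10 q was 209, 115 and 74.9. The fold ranked 2nd of 7069 IGF2BP2 peaks, 1st of 2834 YTHDF2 peaks and 172nd of 9963 YTHDC1 peaks. It was 12.2, 8.68 and 5.11 times the median fold of its list. Since the libraries differ by an unknown depth, the 3 pileups, and the folds that rest on them, are not on a common scale.

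**Figure D2:**
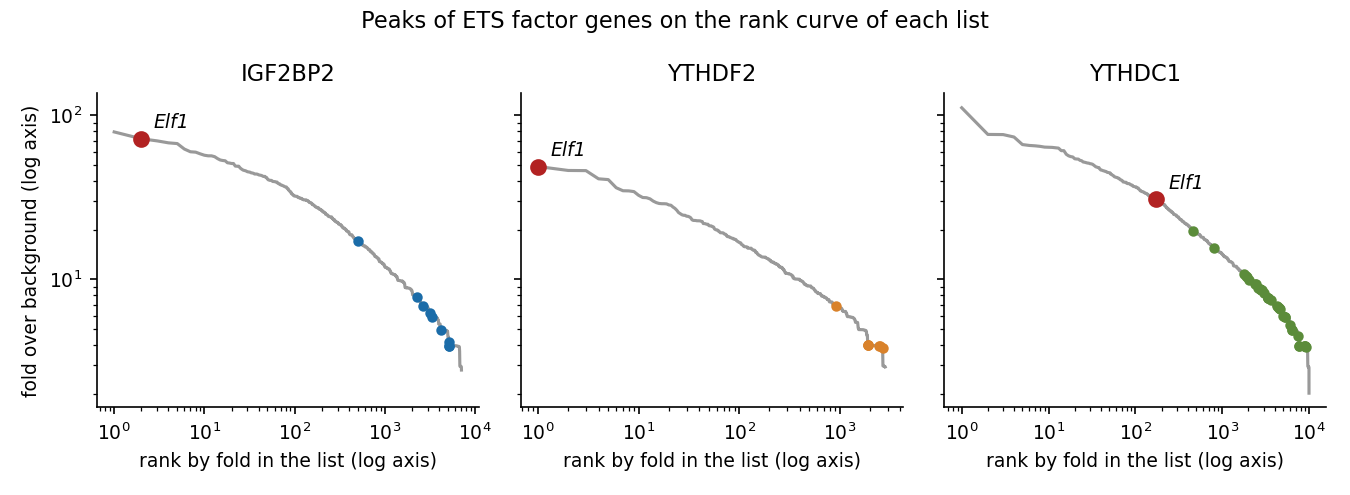
Fold over background against rank by fold within each list (both axes logarithmic), with the whole list as a grey line, peaks of ETS factor genes as coloured points and the Elf1 intron peak in red. The Elf1 peak is 2nd, 1st and 172nd, and the other points lie further down each curve.

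The Elf1 peak ranked lower by pileup than by fold: 25th in the IGF2BP2 list, 64th in the YTHDF2 list and 270th in the YTHDC1 list. The local background there, computed as (pileup + 1) / fold − 1, was 0.609, 0.290 and 0.822 against list medians of 0.0244, 0.0203 and 0.0493. Backgrounds above the lowest values often fell on multiples of 1 step (0.122, 0.0968 and 0.164). Those at Elf1 came to 5.00, 3.00 and 5.00 steps. A high fold was thus reached over a background that was above the list median but small in absolute terms. The highest pileup was 199 in the IGF2BP2 list and 200 in those of YTHDF2 and YTHDC1. Whether peaks with higher pileups were left out of the lists was not tested, so all ranks hold within the lists only.

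By fold, Elf1 stood well clear of the rest of the family for IGF2BP2 and YTHDF2, and less so for YTHDC1. Its fold was 4.20 times the next highest in the family for IGF2BP2 (Elf2, 17.2), 7.06 times for YTHDF2 (Etv6, 6.91) and 1.56 times for YTHDC1 (Spi1, 19.8). The genes were chosen around the fold of this peak, so a lead by fold follows from the selection. By pileup, Elf1 had 115 against 53 for Erg in the IGF2BP2 list and 62 against 41 in the YTHDF2 list. In the YTHDC1 list Erg was higher, with 185 against 55. The other Elf1 peaks were weak. YTHDF2 had one with a pileup of 3 and a fold of 3.92, 407 bp from an exon at the end of intron 1. YTHDC1 had one with a pileup of 7 and a fold of 7.76 in intron 1 and one with a pileup of 4 and a fold of 4.91 in intron 8. None of these overlapped a peak of another list.

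**Figure D3:**
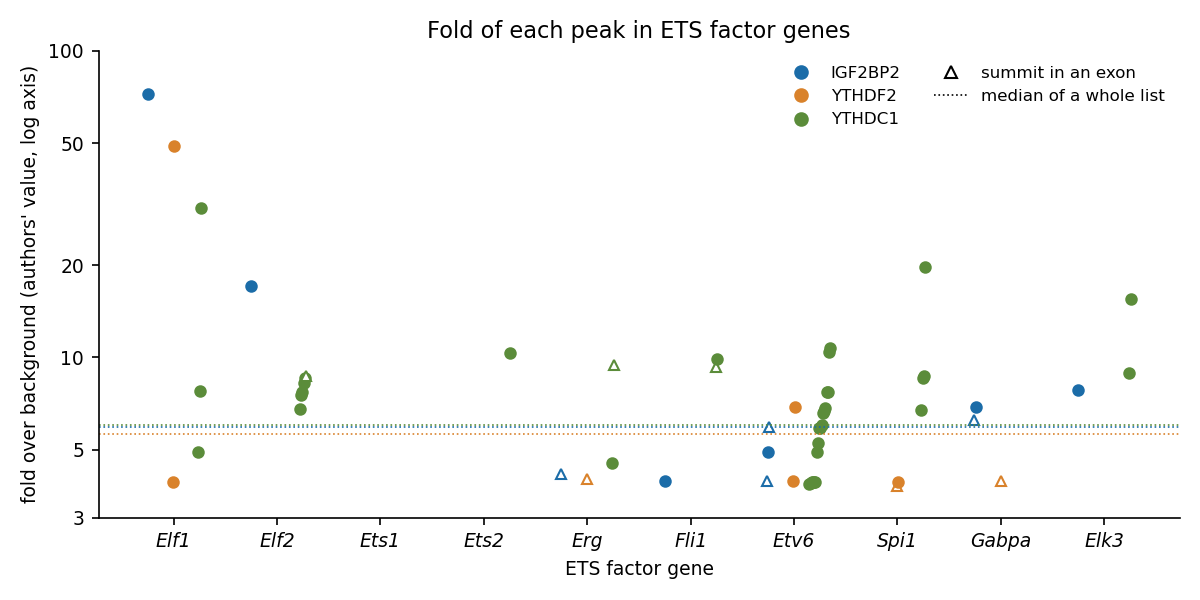
Fold over background (logarithmic axis) of each peak in the 10 genes, with circles for intronic and open triangles for exonic summits, coloured by reader; dotted lines mark the median of each whole list. The Elf1 peaks at 72.1, 48.8 and 30.7 lie above all others, followed by single peaks of Spi1 (19.8), Elf2 (17.2) and Elk3 (15.5); the rest lie between 3.82 and 10.8.

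Introns bound at the same place in all 3 lists were counted as a setting for the Elf1 place. There were 166 such places in 160 protein-coding genes, with median folds of 10.7, 7.99 and 10.2 for IGF2BP2, YTHDF2 and YTHDC1. These lists held 1765, 612 and 3662 intronic peaks in protein-coding genes. Among the shared places Elf1 was 1st, 1st and 33rd by fold. Elf1 was selected on the fold of this peak, so a high rank follows from the selection. The 5 genes nearest to Elf1 by distance of log2 folds over the 3 lists were Rnf220 (distance 1.13), Nrros (1.60), Cdk6 (1.66), Ssh2 (2.01) and U2af1 (2.10). In Rnf220, the nearest, the folds were 58.3, 29.0 and 52.9. By plain value the YTHDC1 fold was below the IGF2BP2 fold in Elf1, Rnf220 and Ssh2, and above it in Nrros, Cdk6 and U2af1. In U2af1 the values were close, at 25.6 and 24.9. Folds rest on pileups from 1 library each at unknown depth, so this order is not a difference between readers.

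Elf2, the close relative of Elf1, had a different pattern, with 6 YTHDC1 peaks, 1 IGF2BP2 peak and 0 YTHDF2 peaks. The gene (ENSMUSG00000037174.18) lies on the minus strand of chromosome 3, at 51252720 to 51340663. The IGF2BP2 peak, at 51272749 to 51273166 in intron 4 of the main transcript, had a pileup of 17 and a fold of 17.2, rank 507. It overlapped no peak of YTHDC1. Of the YTHDC1 peaks 5 were intronic, with pileups of 6 to 14 and folds of 6.79 to 8.59. One of these, with a fold of 8.23, lay in an exon of the unconfirmed transcript 4930577N17Rik on the opposite strand, and the lists give no strand. The exonic one, at 51340431 to 51340572, had a pileup of 42 and a fold of 8.69. It lay in exon 1, with the summit 163 bp from the start of the main transcript.

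The exonic summits were searched for GGAC, the core of the m6A motif, on the sense strand within 50 bases on either side of the summit in the spliced transcript. A GGAC was present at 6 of the 10 exonic peaks: 3 of 4 for IGF2BP2, 1 of 3 for YTHDF2 and 2 of 3 for YTHDC1. Over all exonic summits in main transcripts the shares were 42.5%, 41.7% and 42.2%. The IGF2BP2 and YTHDF2 windows in Gabpa overlap and hold the same 2 GGAC, so they are not separate matches. Likewise the windows of the 3 readers in Erg, all without GGAC, lie at 1 place and are not separate misses. The exon 1 summit in Gabpa also lies in Atp5j on the opposite strand, and the lists give no strand. The windows below show 30 bases of the sense strand from the GENCODE M21 transcripts, chosen because each holds the GGAC nearest to 1 exonic summit, that of YTHDC1 in Elf2 and of IGF2BP2 in exon 1 of Gabpa and exon 8 of Etv6. Windows that span a splice junction are not shown. Capitals mark GGAC.
Elf2, exon 1, chr3:51340491-51340520, minus strand: tcggcttcccgcaGGACgccgggccaacgg
Gabpa, exon 1, chr16:84835513-84835542, plus strand: ggctagggccacgGGACgaattccggagct
Etv6, exon 8, chr6:134266280-134266309, plus strand: atcatgagtggccGGACagaccgtctagaa

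In Elf2 the adenosine of GGAC lay 5 bases before the YTHDC1 summit, and the 101 bases around that summit had a GC content of 82.2%, against a median of 59.4% at exonic YTHDC1 summits. The adenosine was 28 bases after this IGF2BP2 summit in Gabpa and 27 bases before that in Etv6. The base after GGAC was G in the Elf2 and Gabpa windows shown and A in that of Etv6. Only the core was searched for, so a match need not fit the full m6A motif. A match is a feature of the sequence and does not show methylation, which was not measured in these libraries.

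Ets1 and Ets2 encode the founding factors of the family, which respond to growth factor signalling. Ets2 (ENSMUSG00000022895.16, chromosome 16, 95702075 to 95721051, plus strand) had a single YTHDC1 peak at 95702848 to 95702979, in intron 1 of the main transcript and 284 bp from the nearest exon. Its pileup was 23 and its fold 10.4, above 80.8% of the YTHDC1 list. Ets1 (chromosome 9, 32636221 to 32757820) is 122 kb long, longer than 7 of the other genes here, and had 0 peaks.

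Erg, a factor that maintains blood stem cells and is oncogenic when overexpressed, had the highest YTHDC1 pileup of the family, in its 3' UTR, where all 3 readers had a peak. The gene (ENSMUSG00000040732.20, chromosome 16, 95359169 to 95586593) is on the minus strand. Its peaks were at 95359794 to 95359938 for IGF2BP2, 95359818 to 95359928 for YTHDF2 and 95359768 to 95360062 for YTHDC1. They lay in the 3' UTR in exon 11 of 11, which 2 of the 8 Erg transcripts contain. The pileups were 53, 41 and 185, and the last was the 7th highest in the YTHDC1 list, where the highest was 200. The folds were 4.17, 4.01 and 9.42. Those of IGF2BP2 and YTHDF2 were below their list medians, and that of YTHDC1 was above 76.3% of its list.

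The computed background at Erg was 11.9, 9.49 and 18.8, exceeded at only 25, 36 and 17 peaks of the 3 lists. The IGF2BP2 and YTHDF2 summits were the same base, and the YTHDC1 summit was 36 bases away. The sense strand at these summits consists of purines alone, which is why it is shown.
Erg, IGF2BP2 and YTHDF2 summits, chr16:95359855-95359884, minus strand: ggagagagaggaaggggagagaaggaggag
Erg, YTHDC1 summit, chr16:95359891-95359920, minus strand: gggagagaaggaggagggagaggaggagga

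This run of A and G was unbroken over 169 bases around the Erg summits. All 101 bases of each window were purines, where windows with at least 90% purines made up 0.545%, 0.569% and 0.788% of exonic summits for IGF2BP2, YTHDF2 and YTHDC1. No GGAC lay in the Erg windows. Whether reads from other purine tracts were placed here was not tested. Erg had 1 further peak, of YTHDC1 in intron 3, with a pileup of 5 and a fold of 4.51.

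**Figure D4:**
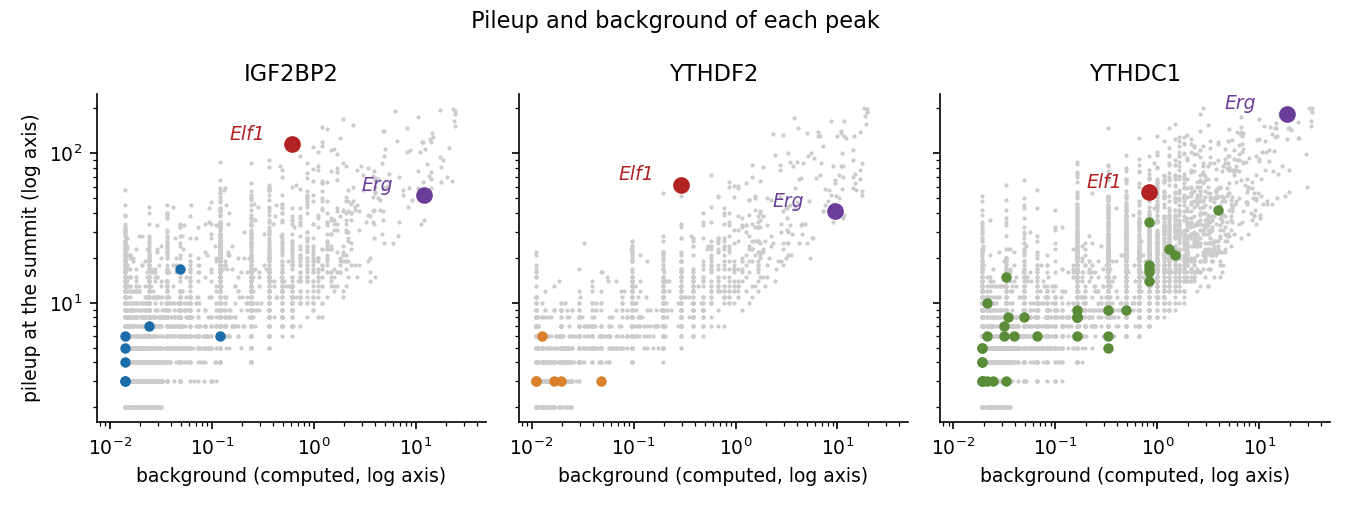
Pileup at the summit against computed background (both axes logarithmic) for all peaks of each list in grey and those of ETS factor genes in colour, with the Elf1 intron peak in red and the Erg 3' UTR peak in purple. Elf1 has a pileup of 115, 62 and 55 over a background below 1, and Erg one of 53, 41 and 185 over a background of 11.9, 9.49 and 18.8.

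Fli1, the paralog of Erg, had no peak in its 3' UTR. The gene (ENSMUSG00000016087.13, chromosome 9, 32422204 to 32542861, minus strand) had 2 YTHDC1 peaks near the start of the main transcript. One, at 32540963 to 32541331, had its summit in the 5' UTR of exon 1, with a pileup of 16 and a fold of 9.33. The other, at 32540162 to 32540277, lay in intron 1 with a pileup of 17 and a fold of 9.88. The IGF2BP2 peak lay further into intron 1 and was among the weakest of its list, with a pileup of 3 and a fold of 3.94. None of the Fli1 peaks overlapped a peak of another reader.

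Etv6, the repressor, had more YTHDC1 peaks than all but 5 protein-coding genes. The gene (ENSMUSG00000030199.16, plus strand) spans 134035700 to 134270158 on chromosome 6 and, at 234 kb, is the longest of the 10. All 18 YTHDC1 summits were intronic: 12 in intron 1, 5 in intron 2 and 1 in intron 4 of the main transcript, which has 7 introns. One of those in intron 1, with a fold of 3.87, also lay in an exon of the unconfirmed transcript Gm43984 on the same strand. They were weak to moderate, with pileups from 3 to 18 (median 5.5) and folds from 3.87 to 10.8 (median 5.89), and 6 had a pileup of 3. Per length Etv6 was less extreme, at 7.68 peaks per 100 kb, where 33.9% of genes with a YTHDC1 peak were denser.

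The Etv6 peaks were spread rather than stacked. The summits ran from 4.82 to 209 kb from the start of the gene, with gaps of 0.327 to 48.6 kb between neighbours and a median gap of 8.95 kb. Intron 1 held 11.9 peaks per 100 kb and intron 2 held 5.85. Introns 3, 5, 6 and 7, together far shorter, held 0. The 2 strongest were both in intron 1, with a fold of 10.8 at a pileup of 10 and a fold of 10.4 at a pileup of 18.

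**Figure D5:**
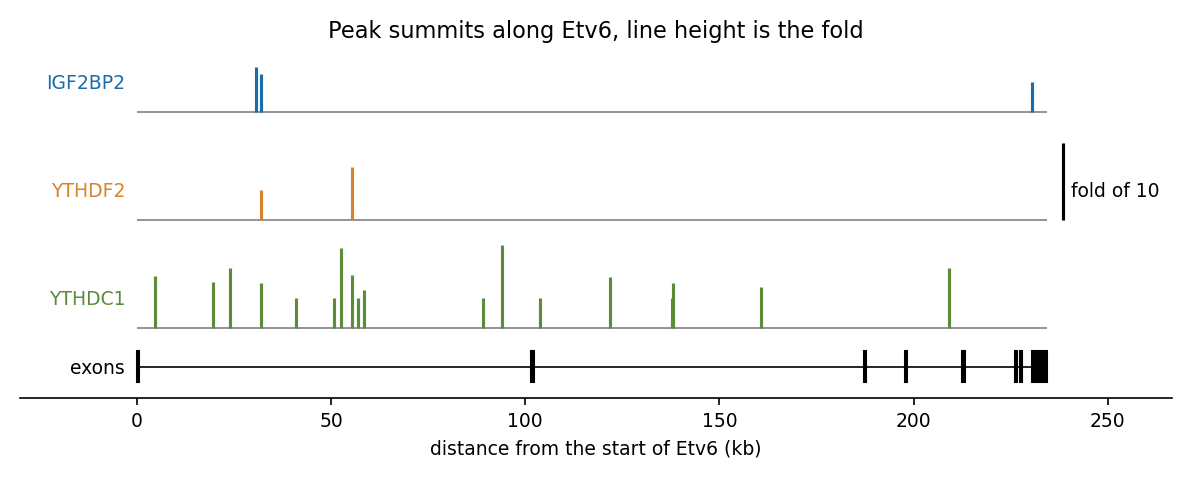
Summits along Etv6 as distance from the start of the gene in kb, with line height proportional to fold (scale bar, fold of 10) for each reader and the exons of the main transcript in black. The 18 YTHDC1 summits are intronic, 12 of them in intron 1, and IGF2BP2 and YTHDF2 have 3 and 2.

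Etv6 also had places shared by readers, at low pileups. At 134067597 to 134067747 in intron 1 all 3 lists had a peak, with pileups of 4, 3 and 5 and folds of 4.93, 3.96 and 5.89 for IGF2BP2, YTHDF2 and YTHDC1. At 134091038 to 134091244 YTHDF2 and YTHDC1 both had a pileup of 6, with folds of 6.91 and 6.85. IGF2BP2 had 2 exonic Etv6 peaks of its own. The one in the CDS of exon 8, shown above, had a pileup of 3 and a fold of 3.94. The other, with a pileup of 5 and a fold of 5.92, lay in a 5' UTR exon found in 1 of 5 transcripts, and in intron 1 of the main one.

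Spi1, the master regulator of myeloid fate, had most of its peaks in the YTHDC1 list, and these lay in a small stretch. The YTHDC1 list is also the longest, with 9963 peaks against 7069 for IGF2BP2 and 2834 for YTHDF2. The counts in Spi1 are therefore not a difference between readers. The gene (ENSMUSG00000002111.8, chromosome 2, 91082390 to 91115756, plus strand) had 4 YTHDC1 peaks, at 12.0 peaks per 100 kb the highest density of the 10. All were intronic. The strongest, at 91100045 to 91100257 in intron 2 of the main transcript, had a pileup of 35 and a fold of 19.8, above 95.3% of the list. The other 3, in intron 1 between 91097578 and 91098511, had pileups of 8, 6 and 8 and folds of 8.70, 6.73 and 8.58. None overlapped a peak of another list. The 2 YTHDF2 peaks in Spi1 lay elsewhere, and both had a pileup of 3. One, with a fold of 3.94, was in an intron before the start of the main transcript, and the other, with a fold of 3.82, was in the CDS of exon 5 of 5, in a window without GGAC. IGF2BP2 had 0 peaks in Spi1.

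Gabpa, the DNA-binding subunit of the factor GABP, differed from the others in having IGF2BP2 and YTHDF2 peaks and none of YTHDC1. The gene (ENSMUSG00000008976.16) lies at 84834925 to 84863779 on the plus strand of chromosome 16. In exon 1, at 84835420 to 84835536, IGF2BP2 had a peak with a pileup of 6 and a fold of 6.24. This base is also in the 5' UTR of Atp5j on the opposite strand, so the source gene is uncertain. The IGF2BP2 peak at 84838994 to 84839160 (pileup 6, fold 6.90) overlapped the YTHDF2 peak at 84839047 to 84839146 (pileup 3, fold 3.96). This pair straddled a splice site: the IGF2BP2 summit was in intron 1, 5 bp before exon 2, and the YTHDF2 summit in exon 2, 21 bp further on.

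Elk3, which represses targets of serum response factor, had a place shared by IGF2BP2 and YTHDC1. The gene (ENSMUSG00000008398.15, chromosome 10, 93247414 to 93311135) is on the minus strand. The shared place is in intron 1, at 93292145 to 93292304 for IGF2BP2 and 93292150 to 93292352 for YTHDC1, with summits 24 bp apart. The pileups were 7 and 15 and the folds 7.81 and 15.5. YTHDC1 had another peak in intron 2 with a pileup of 21 but a fold of 8.87, at a background of 1.48.

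Merged over the lists, the 56 peaks formed 47 places, of which 41 were in 1 list only. The 3 places found in all lists were the Elf1 intron, the Erg 3' UTR and the weak place in Etv6 intron 1. A further 3 were in 2 lists, in Etv6, Gabpa and Elk3. YTHDC1 had 33 places of its own, IGF2BP2 5 and YTHDF2 3. Of the YTHDC1 peaks in these genes 5 of 38 (13.2%, exact 95% interval 4.41 to 28.1) overlapped another list, where 31.1% of all YTHDC1 peaks and 21.3% of the intronic ones did. For IGF2BP2 it was 5 of 10 against 46.6% of the whole list, and for YTHDF2 5 of 8 against 78.6%. The interval given for YTHDC1 treats peaks as independent and is no test.

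Over the peaks of the 10 genes the median fold was 7.63 for YTHDC1, 6.08 for IGF2BP2 and 3.96 for YTHDF2, beside list medians of 6.01, 5.92 and 5.63. The YTHDF2 peaks in these genes were thus mostly small: 5 of 8 had a pileup of 3. Apart from Elf1 and Erg, no YTHDF2 pileup in the family exceeded 6.

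In the rest of the ETS family 11 of 16 genes, which are shorter (median 15.2 kb), had no peak of any reader. YTHDC1 had a peak in 5 (31.2%), IGF2BP2 in 1 (6.25%) and YTHDF2 in 1 (6.25%), near the 20.0%, 12.8% and 7.28% of all protein-coding genes. Elf4 was the one found in all 3 lists, with CDS peaks of fold 9.80 for IGF2BP2, 5.86 for YTHDF2 and 6.78 for YTHDC1. Elk4 had an intronic YTHDC1 peak of fold 11.7. Etv3, Etv5 and Erf had YTHDC1 peaks with a fold of at most 3.93. Elf3, Elf5, Ehf, Elk1, Etv1, Etv2, Etv4, Fev, Spdef, Spib and Spic had 0.

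Partners and cofactors of ETS proteins were counted in the same way. Of 33 such genes, 25 were in the YTHDC1 list, 14 in that of IGF2BP2 and 11 in that of YTHDF2, and 9 were in all 3 lists. The shares over all protein-coding genes were 20.0%, 12.8%, 7.28% and 5.12%. The partner genes are longer, with a median of 31.1 kb against 17.4 kb for all protein-coding genes. Of the peaks in these partners 7 of 36 were intronic for IGF2BP2, 2 of 21 for YTHDF2 and 30 of 72 for YTHDC1, beside 29.2%, 24.6% and 44.5% of the peaks in all protein-coding genes. The highest folds were those of the progenitor factor Myb (46.9 for IGF2BP2), the AP-1 subunit Jund (29.2 for YTHDC1), Srf, which recruits Elk factors (24.0 for YTHDC1), the acetyltransferase gene Ep300 (23.9 for YTHDC1), the corepressor gene Ncor1 (23.2 for IGF2BP2) and Runx2 (21.8 for YTHDC1). Gabpb1, which encodes the partner subunit of Gabpa, had an intronic YTHDC1 peak of fold 7.73 and no other. This list was chosen with earlier results of these data known.

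Only 6 peaks lay within 10 kb outside the 10 genes. The nearest was a YTHDC1 peak 483 bp beyond the end of Elk3, inside Cdk17, with a fold of 5.81. Beyond the end of Spi1, IGF2BP2 (965 bp away, fold 4.90) and YTHDC1 (956 bp away, fold 3.89) had peaks at 1 place outside any annotated gene. The other 3, with folds of 3.90 to 4.94, were in Wbp4 before the start of Elf1.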

How the data were processed

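Immunoprecipitates of 3 readers were used, with 1 library each; the input itself was not analysed here. The tools were HISAT2, Trim Galore and bcl2fastq 2.17 and the build GRCm38, per the submitters' processing notes. The peak caller is not given in the sources used here. The deposited lists hold, by the authors, a fold (ratio) of pileup over local background, −log10 values of the p-value and of the q-value, a score of 10 times the −log10 q, and, per the file headers, the pileup signal at the summit. Peaks were called per library.

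Summits were placed in GENCODE M21 genes with Python 3.11.15 and pandas 2.3.3, over all transcripts of a gene, with UTRs (3' before 5') taken before CDS, then other exons and last introns. The main transcript has the longest complete CDS. Overlap means at least 1 bp. The background assumes a pseudocount of 1 in the fold. At summits shared by 2 lists, the ratio of backgrounds was within 1% of the ratio of the lowest backgrounds in 133 of 133, 114 of 114 and 84 of 84 cases, so the lists appear to share 1 control. Intervals are exact binomial (Clopper-Pearson, scipy 1.17.1). The lookup of genes and exons was checked on simulated positions inside annotated exons, and the overlap rule on planted overlaps. No intronic position was simulated, so calls of introns were not checked in this way. Genes, lists and the rule for named genes (all 10 genes, up to 6 per further list by fold, 5 nearest to Elf1) were chosen with earlier results of these data known. Intron sequences and repeats were not used here, and reads that map to several places could not be traced.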

Additional observations from a re-analysis of the deposited data

How the results depend on the processing

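Over 15 results, 63 other settings and 1 more chosen after seeing the data (without Etv6) were tried; 50 stayed within 1.5 times the reported count or rank, or within the interval of the share, and 14 did not. At a fold of at least 5, peaks in the 10 genes fell to 6 for IGF2BP2 and 2 for YTHDF2, YTHDF2 genes to 2, and the intronic share of YTHDF2 peaks became 100%. With a −log10 q of 5 or more YTHDF2 had 5 peaks, and it had 3 peaks in 3 genes at a pileup of at least 5. With as many peaks as the shortest list, IGF2BP2 had 6 peaks and YTHDC1 14. By −log10 q the Elf1 peak ranked 5th for IGF2BP2 and 12th for YTHDF2, and by pileup 25th for IGF2BP2, 64th for YTHDF2 and 270th for YTHDC1. Fewer peaks enter under the stricter settings by construction; the cause of the rank shifts was not tested. No paired analysis was possible because each group has 1 library and no result comes from a test. Unknown depth limits every comparison of pileups and folds between readers, and peaks with a pileup of 3 rest on few fragments.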
